A study of Homo sapiens with 16 samples.

Results

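The question addressed here was which genes changed with Tcf/Lef reporter activity to a different extent, or in opposite directions, in MDA-MB-231 and MDA-MB-436 cells kept in low serum. All 8 low serum libraries of the 16 in the series entered the comparison. They form 4 groups of 2 biological replicates each, the reporter-negative (7TGP-NEG) and reporter-positive (7TGP-POS) sublines of either line, all grown in 0.5% FBS and harvested on day 3. Both cell lines are mesenchymal triple-negative breast cancer models, and all 4 groups carry the 7TGP vector, in which repeated Tcf/Lef binding sites drive eGFP next to a puromycin resistance cassette. NEG and POS cells were separated by repeated sorting on eGFP and expansion, so each group is 1 sorted subline, and its replicates do not sample independent sorts. Transcripts of eGFP or the vector were not analysed here, so the reporter status of each library rests on its label. The methods name different culture media for the lines (DMEM/F-12 and RPMI-1640), whereas the labels name DMEM for both. A difference between the lines and a difference between media therefore cannot be told apart. In bulk RNA, fewer cells of a kind and less RNA per cell cannot be told apart either.

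In the canonical Wnt pathway, secreted Wnt ligands bind Frizzled and LRP receptors, β-catenin is spared from degradation, and it enters the nucleus to act with Tcf/Lef factors on target genes such as *AXIN2*. The pathway is known to act in a context-dependent way, because chromatin and partner factors differ between cells. NF-κB is a separate family of transcription factors that switches on cytokine and chemokine genes and also its own inhibitors. Both are often studied in triple-negative breast cancer for their links to inflammation and to the mesenchymal state.

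The 8 libraries held between 27918418 and 32667756 read pairs counted on genes, and replicates of a group correlated at r between 0.9944 and 0.9954 across genes. The lines were told apart by *CDKN2A*, which was at 0.148 to 0.2998 CPM (counts scaled to the TMM-adjusted library size) in the 4 MDA-MB-231 libraries and at 120.7 to 127.8 CPM in the 4 MDA-MB-436 libraries. *CDH1*, which encodes E-cadherin, was at no more than 0.450 CPM in any library. The 11 immune cell markers together summed to 11.1 to 23.2 CPM, and the 6 endothelial markers to 2.78 to 6.80 CPM. The 6 fibroblast markers, which include 3 collagen genes that tumor cells can also make, summed to 3.72 and 4.43 CPM in MDA-MB-436 7TGP-NEG, to 18.6 and 20.3 CPM in MDA-MB-436 7TGP-POS, and to 21.8 to 29.5 CPM in the MDA-MB-231 libraries. In MDA-MB-436, *COL3A1* was at 0.513 and 0.594 CPM in NEG and 12.1 and 14.1 CPM in POS libraries. *COL1A1* was at 2.50 and 2.45 CPM, then 5.33 and 4.99 CPM. *LUM*, *DCN* and *PDGFRA* were at no more than 0.802 CPM in any library of that line. The part of these markers in the results was not tested. *PTPRC*, which defines leukocytes, was at 2.07 and 2.31 CPM in NEG and 4.68 and 4.96 CPM in POS libraries of MDA-MB-231, and at 0.185 to 0.371 CPM in MDA-MB-436. *LYZ*, another immune marker, went the other way in MDA-MB-231, at 9.07 and 9.88 CPM in NEG and 4.80 and 4.88 CPM in POS libraries. The sum of the 11 immune markers there was 19.8 and 23.2 CPM in NEG and 20.4 and 20.6 CPM in POS libraries.

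For each gene, the log2 fold change of POS against NEG was taken in each line, and the change in MDA-MB-436 was subtracted from the change in MDA-MB-231 in 1 model (edgeR's quasi-likelihood test, Benjamini-Hochberg adjustment over all genes tested). This value is called the difference below. A gene was called when its adjusted p was under 0.05 and its difference was at least 1 in size, and it is then described as greater in MDA-MB-231 where the difference is positive and greater in MDA-MB-436 where it is negative. Of 16069 protein-coding genes tested, 1884 were called (11.7%), 758 greater in MDA-MB-231 (4.72%) and 1126 greater in MDA-MB-436 (7.01%). At the adjusted p alone, 7345 genes (45.7%) passed. For POS against NEG within a line, 5.9% of genes passed both thresholds in MDA-MB-231 and 10.5% in MDA-MB-436. The median difference over all genes was -0.05 (5th percentile -2.30, 95th percentile 1.71), and the median standard error of a difference was 0.126. Just inside the size threshold lay *IER3*, an NF-κB target with a difference of 1.00 (standard error 0.103), and just outside it lay *IL11*, a cytokine with a difference of -0.98 (standard error 0.210). *IL11* was higher in POS libraries of both lines, at 145.5 and 147.5 CPM against 29.2 and 27.7 CPM in MDA-MB-231 and at 7.17 and 8.69 CPM against 0.673 and 0.891 CPM in MDA-MB-436.

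The called genes fell into 5 classes. In 852 of them (45.2%) the POS-NEG change passed both thresholds in MDA-MB-436 alone, 578 of these being raised and 274 lowered. In 386 (20.5%) it passed in MDA-MB-231 alone, 205 raised and 181 lowered. In 507 (26.9%) it passed in neither line, as with *FZD1* and *INSIG1* below. In 46 (2.44%) it passed in both lines with the same sign, and in 93 (4.94%) it passed in both with opposite signs. The last class is called reversed here. It holds 0.579% of all genes tested, 54 genes that rose with the reporter in MDA-MB-231 and fell in MDA-MB-436 (0.336%) and 39 that did the opposite (0.243%). At the adjusted p alone the shares were 5.84% and 5.77%. Stricter or other tests called fewer genes reversed, 19 and 8 with glmTreat against a log2 difference of 1, and 10 and 9 with limma on log2(TPM + 1). In all 93 the NEG and POS libraries did not overlap in either line. The thresholds make this likely and the share over all genes was not counted, so it adds no support.

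**Figure D1:**
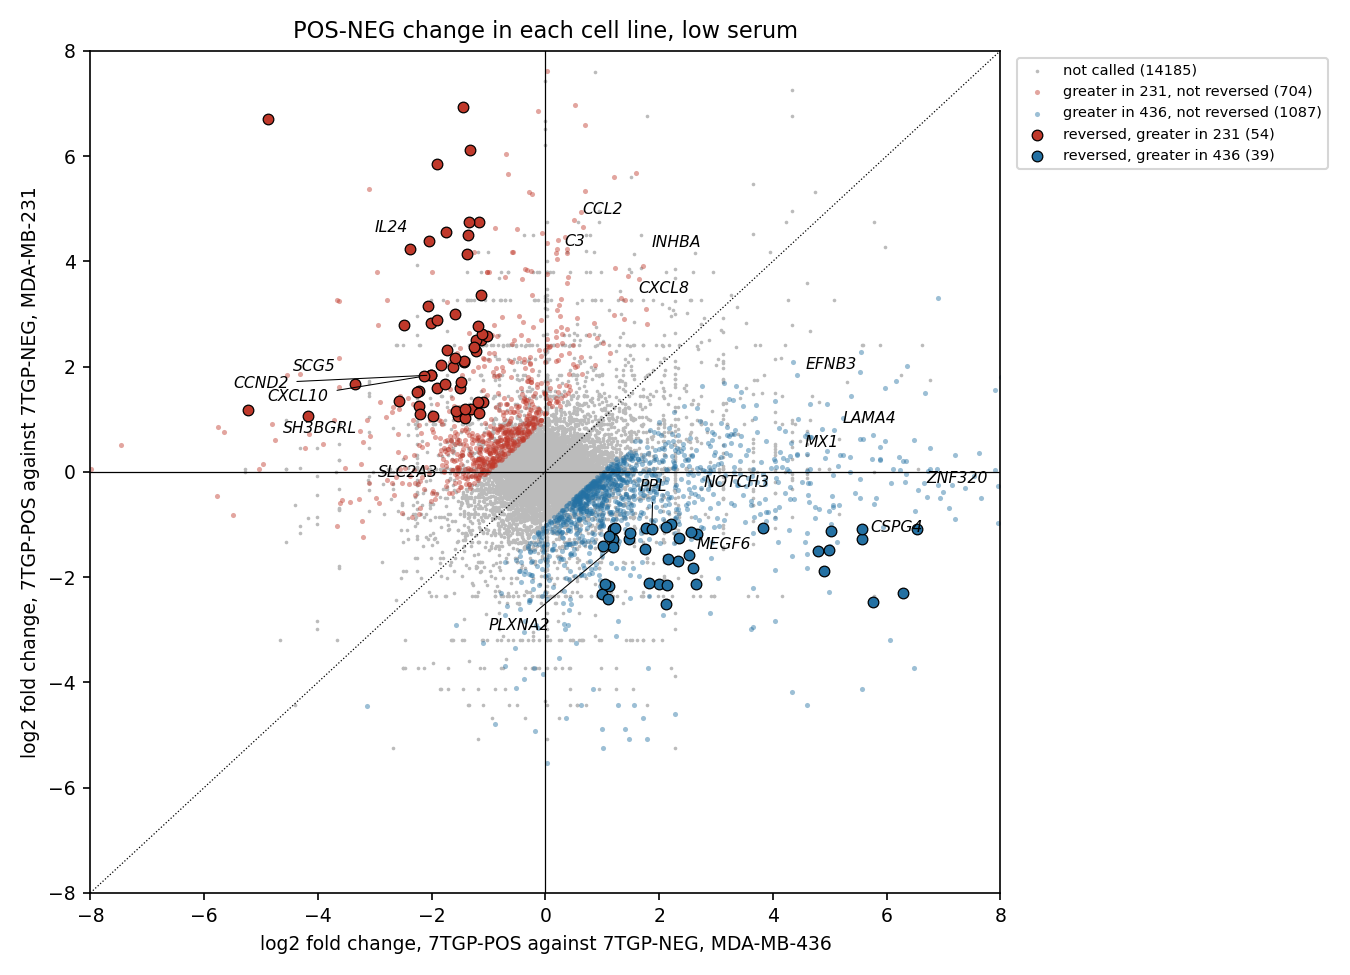
Each point is a gene tested, with its log2 fold change of POS against NEG in MDA-MB-436 on the x axis and in MDA-MB-231 on the y axis, and the dotted diagonal marks equal changes. The 54 reversed genes greater in MDA-MB-231 (red, outlined) lie in the upper left quadrant and the 39 greater in MDA-MB-436 (blue, outlined) in the lower right, and 22 genes lie outside the range shown.

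The reversed genes that rose in MDA-MB-231 and fell in MDA-MB-436 were led by *CCND2* (chr12:4378937-4414519, GRCh37), which encodes cyclin D2, a driver of the G1 phase. *CCND2* was at 31.7 and 34.1 CPM in MDA-MB-231 7TGP-NEG, 115 and 120.1 CPM in the POS libraries of that line, 100.3 and 106 CPM in MDA-MB-436 7TGP-NEG, and 25.9 and 25.2 CPM in its POS libraries. The high and low groups thus changed places between the lines, with a log2 fold change of 1.84 in MDA-MB-231 and -2.01 in MDA-MB-436, and a difference of 3.85 (standard error 0.0873, adjusted p = 1.81e-31). *NNMT* (chr11:114128509-114184258), whose enzyme methylates nicotinamide, showed the same order, at 16.2 and 17.4 CPM, then 53.7 and 56.3 CPM in MDA-MB-231, and at 32.9 and 35.4 CPM, then 12.5 and 12.02 CPM in MDA-MB-436, with NEG libraries first. Its difference was 3.19 (standard error 0.107, adjusted p = 8.94e-26).

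*S1PR3*, a receptor for sphingosine 1-phosphate, was at 1.04 and 0.946 CPM, then 6.18 and 7.375 CPM in MDA-MB-231, and at 54.5 and 54.4 CPM, then 24.45 and 23.3 CPM in MDA-MB-436. Here all MDA-MB-436 libraries stayed above all MDA-MB-231 libraries, and the difference was 3.95 (standard error 0.185, adjusted p = 4.96e-21). *PDZK1IP1*, which encodes a small membrane protein, had a difference of 3.62 (standard error 0.138), from log2 fold changes of 1.99 and -1.63.

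*SCG5*, a secretory granule chaperone, was at 1.78 and 1.51 CPM, then 4.61 and 5.94 CPM in MDA-MB-231, and at 11.2 and 9.84 CPM, then 1.04 and 1.04 CPM in MDA-MB-436. Its difference was 5.01 (standard error 0.268, adjusted p = 3.54e-19). *CLIC2*, of the chloride intracellular channel family, and *ANKRD33B* followed with differences of 3.64 and 2.59. *CNKSR2*, a scaffold of the Ras pathway, had a difference of 4.83 with levels of no more than 4.38 CPM in any library. Among the 54 genes, the log2 fold change ranged from 1.03 to 6.92 in MDA-MB-231 and from -5.22 to -1.02 in MDA-MB-436. In 14 of them a group was at the floor (no more than 3 counts in each library), and 21 had a count of at least 10 in each library.

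Cytokine genes were among the reversed genes of this orientation. *CXCL10*, a chemokine for T cells that interferon and NF-κB both induce, was at 0.666 and 0.681 CPM in MDA-MB-231 7TGP-NEG and at 2.74 and 2.01 CPM in the POS libraries. In MDA-MB-436 it was at 23.1 and 24.7 CPM in NEG libraries and at 5.36 and 5.51 CPM in POS libraries, and its difference was 3.95 (standard error 0.277, adjusted p = 1.89e-15). *CXCL11*, which binds the same receptor, had log2 fold changes of 1.53 and -2.22. *IL24*, a cytokine of the IL-10 family, was at 0.222 and 0.341 CPM, then 6.03 and 5.94 CPM in MDA-MB-231, and at 1.92 and 1.11 CPM, then 0.301 and 0.444 CPM in MDA-MB-436. *CCL20*, a chemokine for dendritic cells and lymphocytes, had log2 fold changes of 1.197 and -1.30 and a difference of 2.50 (standard error 0.286, adjusted p = 1.26e-09). *GBP5*, an interferon-induced GTPase, and *TNIP3*, an inhibitor of NF-κB signaling, had differences of 3.09 and 3.86. All 6 of these genes had higher levels in the NEG libraries of MDA-MB-436 than in those of MDA-MB-231, and their CPM in MDA-MB-231 7TGP-POS was no more than 6.03 in any library.

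The reversed genes that fell in MDA-MB-231 and rose in MDA-MB-436 were led by *PPL* (chr16:4932508-5010742), which encodes periplakin, a linker between desmosomes and intermediate filaments. *PPL* was at 23.7 and 21.2 CPM in MDA-MB-231 7TGP-NEG, 11.02 and 10.2 CPM in MDA-MB-231 7TGP-POS, 19.8 and 19.02 CPM in the NEG libraries of MDA-MB-436, and 70.9 and 71.1 CPM in its POS libraries. The NEG groups of the lines were thus close and the POS groups far apart, with a difference of -2.95 (standard error 0.110, adjusted p = 2.61e-24). *PLXNA2* (chr1:208195587-208417729), a plexin that receives semaphorin signals, was at 109 and 102.4 CPM, then 40.2 and 38.5 CPM in MDA-MB-231, and at 15.1 and 11.96 CPM, then 32.1 and 30.2 CPM in MDA-MB-436. Here the NEG groups were far apart and the POS groups closer, and the difference was -2.62 (standard error 0.107, adjusted p = 2.21e-20).

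*MEGF6*, which encodes a secreted protein with EGF-like repeats, had the largest difference of these genes, apart from *C4B*, among those with a count of at least 10 in each library. It was at 26.9 and 25.7 CPM, then 9.82 and 7.62 CPM in MDA-MB-231, and at 23.25 and 20.99 CPM, then 116.8 and 137 CPM in MDA-MB-436, and its difference was -4.10 (standard error 0.147, adjusted p = 1.12e-12). *NES*, the intermediate filament nestin, was at 113.2 and 113.9 CPM, then 50.9 and 50.7 CPM in MDA-MB-231, but at 0.641 and 0.817 CPM, then 2.28 and 1.775 CPM in MDA-MB-436. Its log2 fold changes of -1.16 and 1.49 therefore stood on levels that differed by line far more than by reporter status. *CSPG4*, a transmembrane proteoglycan, was at 61.5 and 56.6 CPM, then 24.0 and 25.0 CPM in MDA-MB-231, and at 0.160 and 0.371 CPM, then 10.8 and 14.1 CPM in MDA-MB-436, with a difference of -6.83 (standard error 0.243, adjusted p = 2.72e-18). *FGFR3*, a receptor tyrosine kinase for fibroblast growth factors, was at 3.00 and 3.22 CPM, then 0.937 and 1.64 CPM in MDA-MB-231, and at 5.45 and 5.68 CPM, then 14.4 and 16.3 CPM in MDA-MB-436. *C4B*, a complement component, had a difference of -4.13, but its near-identical paralog *C4A* is counted separately, so reads may have been split between them. *TSTD1*, *MDGA1*, *FAM110B* and *LBH*, a transcription regulator known as a Wnt target, had differences of -3.19, -2.46, -3.52 and -2.28. Among the 39 genes, 15 had a group at the floor and 15 had a count of at least 10 in each library.

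**Figure D2:**
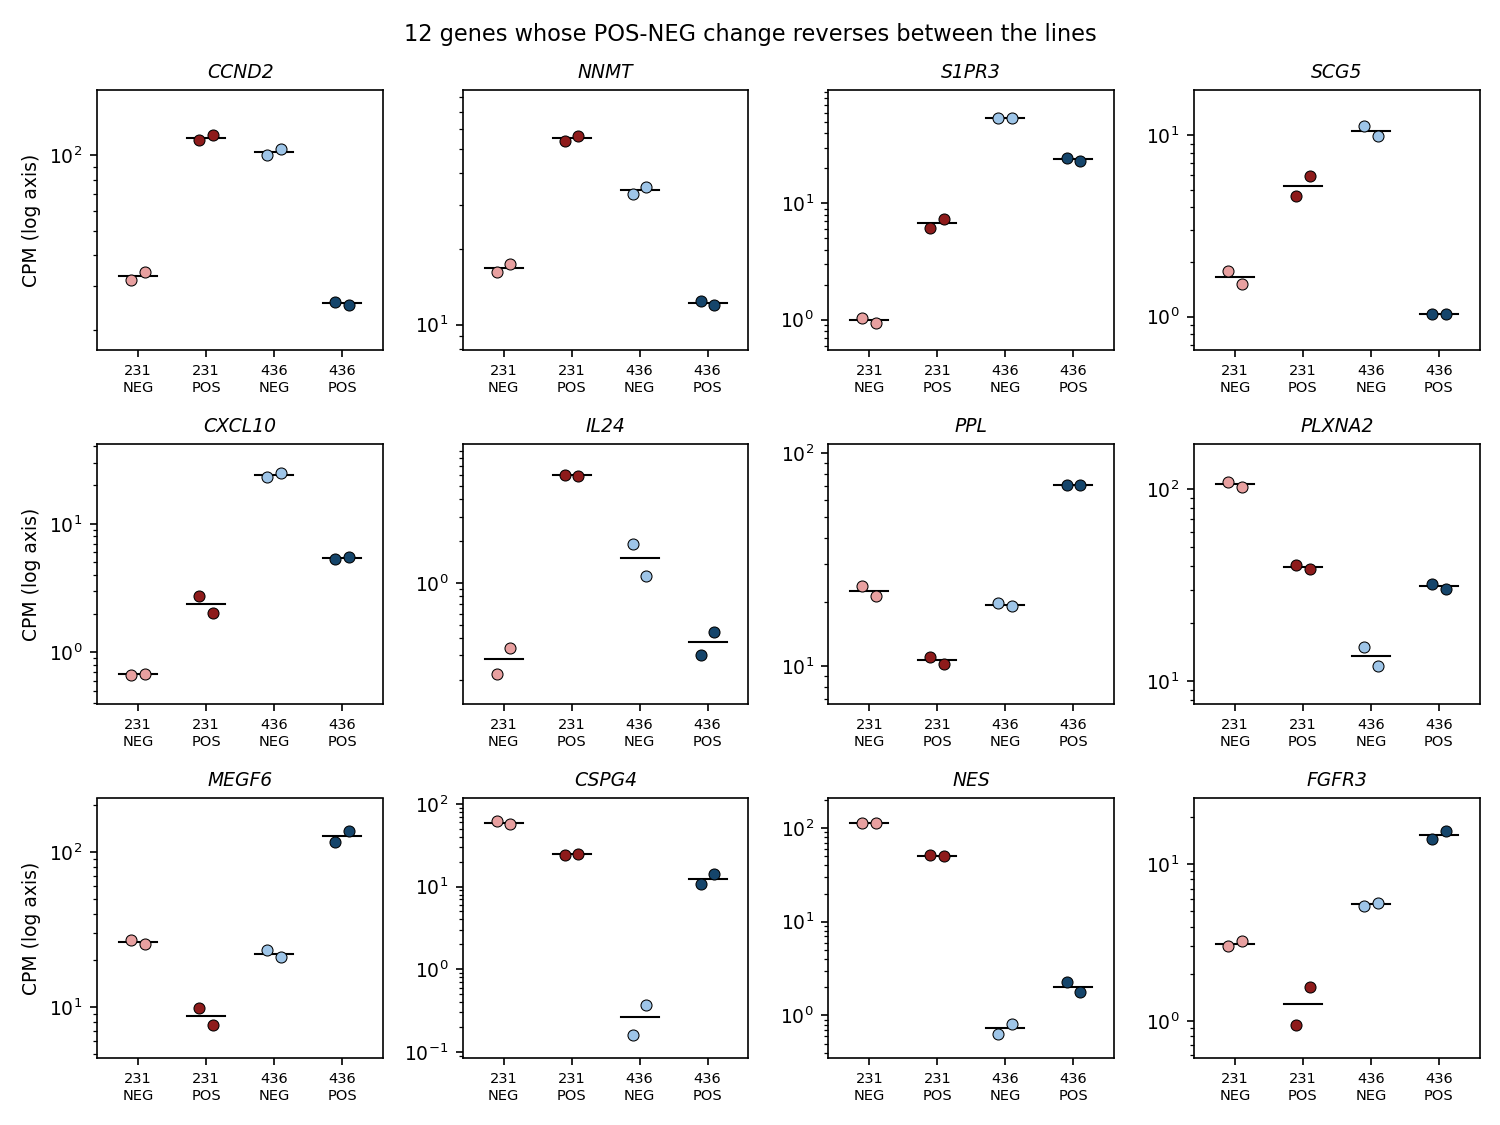
CPM on a log axis in each library (points) and the mean of each group (line) for 12 reversed genes. In the first 6 genes the POS points lie above the NEG points in MDA-MB-231 and below them in MDA-MB-436, and in the other 6 the order is the opposite.

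The levels of the reversed genes differed by line already among NEG cells, which is a description and no test, because the difference is computed from the same libraries. Of the 54 genes that rose in MDA-MB-231 and fell in MDA-MB-436, 48 (88.9%) were lower in MDA-MB-231 than in MDA-MB-436 among NEG groups, and 25 (46.3%) among POS groups. Of the 39 genes of the opposite orientation, 6 (15.4%) were lower in MDA-MB-231 among NEG groups and 24 (61.5%) among POS groups. Over all genes tested these shares were 49.7% and 52.3%. The line with the higher level was not the same among NEG and POS groups for 23 of the 54 and 18 of the 39 genes, against 16.1% of all genes. The gap between the lines on the log2 scale was smaller among POS than among NEG groups in 38 of the 54 (70.4%) and 23 of the 39 (59%), against 54.4% of all genes.

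Of the 46 genes that passed in both lines with the same sign, 42 rose and 4 fell. Of those that rose, 14 rose more in MDA-MB-231 and 28 more in MDA-MB-436. *CXCL8* (chr4:74606236-74609433), the neutrophil chemokine IL-8, was at 61.0 and 58.5 CPM, then 722 and 847 CPM in MDA-MB-231, and at 76.9 and 77.4 CPM, then 209 and 215 CPM in MDA-MB-436. It rose in both lines from similar NEG levels, by 3.71 and 1.46 on the log2 scale, with a difference of 2.25 (standard error 0.0853, adjusted p = 7.37e-19). *CXCL1*, of the same chemokine family, rose by 3.265 and 1.398 on the log2 scale. *INHBA*, whose product forms activin A, was at 3.78 and 4.28 CPM, then 59.8 and 62.1 CPM in MDA-MB-231, and at 1.70 and 1.60 CPM, then 5.93 and 4.92 CPM in MDA-MB-436, with a difference of 2.20 (standard error 0.218, adjusted p = 3.28e-11). On the MDA-MB-436 side, *EFNB3*, an ephrin ligand, rose by 1.83 in MDA-MB-231 and 4.42 in MDA-MB-436, and *IGFBP5*, which binds insulin-like growth factors, by 2.10 and 4.35. *IGFBP5* reached 302 and 292 CPM in MDA-MB-436 7TGP-POS from 14.6 and 14.5 CPM, whereas in MDA-MB-231 it stayed at no more than 4.425 CPM. *ALDOC*, an aldolase of glycolysis, fell in both lines, by 3.26 in MDA-MB-231 and by 1.10 in MDA-MB-436 on the log2 scale.

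The largest differences among called genes were then ranked, over those with a count of at least 10 in each library. The ranking is computed from the same groups, so it favors genes with a very low group. Which group was lowest was not counted over all genes. On the side greater in MDA-MB-436, the lowest of the 4 groups was MDA-MB-436 7TGP-NEG in 7 of 8 genes. *ZNF320*, a zinc finger gene, was at 39.9 and 39.3 CPM and 30.5 and 32.2 CPM in the MDA-MB-231 groups and at 45.6 and 52.7 CPM in MDA-MB-436 7TGP-POS, but at 0.609 and 0.409 CPM in the NEG libraries of that line. Its difference was -6.90 (standard error 0.168, adjusted p = 2.22e-30). *VIPR1*, a receptor for vasoactive intestinal peptide, had 2.53 and 2.34 CPM in MDA-MB-436 7TGP-NEG against 81.6 and 92.5 CPM in POS libraries of that line and 152 to 175 CPM in MDA-MB-231. *PPARGC1A*, a coactivator of mitochondrial genes, *ELAPOR2* and *IGFBP7*, which is secreted, showed the same layout with differences of -5.10, -5.37 and -5.05. *CILP2*, a matrix protein gene, had a difference of -4.88.

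On the side greater in MDA-MB-231, MDA-MB-231 7TGP-NEG was the lowest group in 5 of 8 genes. *LRMDA*, a gene of melanocyte differentiation, was at 0.592 and 0.530 CPM there and at 21.5 and 22.25 CPM in the POS libraries, against 14.4 to 17.6 CPM in MDA-MB-436, with a difference of 5.50 (standard error 0.196, adjusted p = 6.27e-25). *LRIG1*, a negative regulator of EGF receptor family members, was at 2.78 and 2.42 CPM, then 58.0 and 57.1 CPM in MDA-MB-231, and at 96.4 to 127 CPM in MDA-MB-436. *NAP1L3* and *SLITRK5* had differences of 4.21 and 4.07. *SH3BGRL* differed through MDA-MB-436, where it was at 40.8 and 38.1 CPM in NEG libraries and at 1.74 and 1.15 CPM in POS libraries, against 71.5 and 70.9 CPM and then 105 and 112 CPM in MDA-MB-231. *C3*, the central complement component, was at 6.63 and 6.77 CPM in MDA-MB-231 7TGP-NEG, at 115 and 126 CPM in its POS libraries, and at 1105 to 1289 CPM in all MDA-MB-436 libraries, with a difference of 3.99 (standard error 0.0907, adjusted p = 1.81e-31).

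Members of 21 gene lists were then counted, beside the shares of 4.72% and 7.01% over all genes. For counts at an unadjusted p under 0.05, the share over all genes was not counted. It is at least the 45.7% that passed the adjusted p alone. Among 28 NF-κB target genes tested, 20 were called greater in MDA-MB-231 and 0 greater in MDA-MB-436, by edgeR and by DESeq2, and at an unadjusted p under 0.05 1 was negative. Their median difference was 1.59, from a median log2 fold change of 1.201 in MDA-MB-231 and -0.15 in MDA-MB-436, and 26 of 28 differences were above 0. The lowest difference was -0.22, for *NFKBIZ*, an IκB family member. *IL1B* (chr2:113587328-113594393), which encodes the inflammatory cytokine interleukin-1β, was at 2.67 and 4.201 CPM, then 56.7 and 56.9 CPM in MDA-MB-231, and at 66.6 and 67.2 CPM, then 77.5 and 77.5 CPM in MDA-MB-436. MDA-MB-231 7TGP-NEG was thus the 1 low group, and the difference was 3.84 (standard error 0.123, adjusted p = 1.94e-24). *TNFAIP3*, which encodes the feedback inhibitor A20, was at 19.2 and 19.7 CPM, then 46.1 and 43.6 CPM in MDA-MB-231, and at 323 and 311 CPM, then 207 and 210 CPM in MDA-MB-436, with a difference of 1.81 (standard error 0.0802, adjusted p = 7.52e-22). *BIRC3*, an inhibitor of apoptosis, *PTGS2*, the prostaglandin synthase COX-2, and *TRAF1*, an adaptor of TNF receptors, had differences of 1.68, 2.97 and 1.86. The genes of the NF-κB subunits moved less, with differences of -0.04 for *NFKB1*, 0.51 for *NFKB2*, 0.89 for *RELB* and 0.38 for *REL*.

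Among 32 secreted cytokine and chemokine genes, which share members with the NF-κB list, 18 were called greater in MDA-MB-231 and 1 greater in MDA-MB-436, with a median difference of 1.73, and 5 of them were reversed. *IL6* was at 1.78 and 2.01 CPM, then 14.7 and 12.7 CPM in MDA-MB-231, and at 35.6 and 35.9 CPM, then 25.1 and 29.5 CPM in MDA-MB-436, with a difference of 3.25 (standard error 0.164, adjusted p = 6.77e-20). *CSF3*, the granulocyte colony-stimulating factor, was at 16.9 and 16.7 CPM, then 93.3 and 88.1 CPM in MDA-MB-231, and at 15.6 and 15.4 CPM, then 9.78 and 10.98 CPM in MDA-MB-436, so that the NEG groups were alike and the POS groups far apart. *CCL2*, a monocyte chemokine, had a difference of 4.29 (standard error 0.227), from 0.296 and 0.530 CPM in MDA-MB-231 7TGP-NEG and 11.65 and 11.2 CPM in the POS libraries. *IL33*, an alarmin, was the 1 member called greater in MDA-MB-436, at no more than 1.21 CPM in any library.

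The promoters of called genes were searched for 2 motifs in the window from 250 bases before to 50 bases after the RefSeq start (GRCh38.p14), on both strands. The NF-κB motif, spelled GGG, any 2 bases and then TTTCC (or, as its reverse complement, GGAAA, any 2 bases and then CCC), was in 266 of 12754 promoters of genes tested (2.09%), in 29 of 581 of those greater in MDA-MB-231 (4.99%) and in 14 of 867 of those greater in MDA-MB-436 (1.61%). It was in 11 of 22 promoters of the NF-κB list. List members called greater in MDA-MB-231, such as *CXCL1*, *TNFAIP3*, *BIRC3* and *IL6*, are among the 29. The share of 4.99% is therefore not separate from the list counts above. The Tcf/Lef motif ATCAAAG (reverse complement CTTTGAT), whose core the reporter repeats, was in 196 promoters of genes tested (1.54%), in 9 greater in MDA-MB-231 (1.55%) and in 12 greater in MDA-MB-436 (1.38%). A match is a description of the letters and not evidence of a bound site. The windows below were picked because they hold a match to the NF-κB motif, which capitals mark, and belong to a reversed gene and 3 NF-κB list members described above. The windows of *IL1B*, *TRAF1* and *CXCL8* held no such match. *CLIC2* lies at chrX:155334565-155334864 (minus strand), *CXCL1* at chr4:73869143-73869442, *TNFAIP3* at chr6:137867009-137867308 and *IL6* at chr7:22726950-22727249 (plus strand).
CLIC2: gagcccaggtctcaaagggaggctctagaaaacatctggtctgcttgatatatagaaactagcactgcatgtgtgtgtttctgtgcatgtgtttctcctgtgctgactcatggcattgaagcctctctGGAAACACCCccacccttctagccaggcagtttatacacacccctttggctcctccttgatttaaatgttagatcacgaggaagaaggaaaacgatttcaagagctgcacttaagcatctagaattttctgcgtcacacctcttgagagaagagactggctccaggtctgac
CXCL1: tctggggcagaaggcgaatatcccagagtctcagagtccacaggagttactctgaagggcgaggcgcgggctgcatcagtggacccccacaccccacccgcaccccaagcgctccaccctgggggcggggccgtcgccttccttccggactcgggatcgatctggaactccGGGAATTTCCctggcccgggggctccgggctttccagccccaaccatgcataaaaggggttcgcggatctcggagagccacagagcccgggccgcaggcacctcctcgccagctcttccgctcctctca
TNFAIP3: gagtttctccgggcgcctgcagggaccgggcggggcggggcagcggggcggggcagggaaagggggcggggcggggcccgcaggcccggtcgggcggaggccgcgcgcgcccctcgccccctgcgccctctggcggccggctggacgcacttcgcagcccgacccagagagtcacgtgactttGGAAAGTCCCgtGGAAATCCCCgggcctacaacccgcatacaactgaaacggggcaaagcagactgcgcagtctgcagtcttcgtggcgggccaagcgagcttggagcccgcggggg
IL6: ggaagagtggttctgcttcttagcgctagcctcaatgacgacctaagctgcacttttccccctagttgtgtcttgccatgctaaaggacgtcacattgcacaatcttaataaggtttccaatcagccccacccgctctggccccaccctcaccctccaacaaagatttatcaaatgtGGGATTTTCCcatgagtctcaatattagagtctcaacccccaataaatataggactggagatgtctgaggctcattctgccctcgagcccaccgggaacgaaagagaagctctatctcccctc
The window of *TNFAIP3* held 2 matches, ending 58 and 46 bases before the start, and those of *CXCL1* and *IL6* held 1 each, ending 70 and 64 bases before it.

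Canonical Wnt target genes were not on 1 side. Of 28 tested, 4 were called greater in MDA-MB-231 and 1 greater in MDA-MB-436, and the median difference was -0.09. *NKD2*, among the 4, held only 1 to 4 counts in the MDA-MB-231 libraries. In MDA-MB-436 it was at 25.3 and 25.0 CPM in NEG libraries and at 4.09 and 4.22 CPM in POS libraries. *AXIN2*, the feedback scaffold of the β-catenin destruction complex, was at 9.03 and 10.4 CPM, then 15.3 and 15.2 CPM in MDA-MB-231, and at 2.15 and 2.45 CPM, then 3.25 and 2.59 CPM in MDA-MB-436, with a difference of 0.29 (standard error 0.217, adjusted p = 0.294). *LEF1*, a Tcf/Lef factor and target, was higher in POS libraries of both lines, at 16.04 and 16.3 CPM against 11.3 and 9.54 CPM and at 18.2 and 18.9 CPM against 12.8 and 13.4 CPM, with a difference of 0.13 (standard error 0.136, adjusted p = 0.463). These p-values do not show that the lines respond alike. *DKK1*, a secreted Wnt antagonist, was at 171 and 171 CPM, then 204 and 216 CPM in MDA-MB-231, and at 24.4 and 22.5 CPM, then 102.2 and 100.5 CPM in MDA-MB-436, with a difference of -1.82 (standard error 0.0782, adjusted p = 2.83e-22). *TCF4*, which encodes a basic helix-loop-helix factor and is not the gene of the Tcf/Lef protein once known by that name, was at 3.67 and 2.95 CPM, then 29.3 and 30.2 CPM in MDA-MB-231, and at 12.4 to 15.1 CPM in MDA-MB-436. *LGR5*, an R-spondin receptor, had a difference of 1.12 (standard error 0.440, adjusted p = 0.0345) on levels under 5 CPM, and its call did not hold in DESeq2. *ZNRF3* and *TCF7* had differences of -0.16 and -0.09 (adjusted p = 0.323 and 0.758).

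Of 40 Wnt ligands, receptors and antagonists, 1 was greater in MDA-MB-231 and 5 were greater in MDA-MB-436. *FZD1*, a Frizzled receptor, was at 131 and 135 CPM, then 74.3 and 75.7 CPM in MDA-MB-231, and at 46.2 and 45.8 CPM, then 83.0 and 86.5 CPM in MDA-MB-436. The POS groups were thus nearly level and the NEG groups apart, with log2 fold changes of -0.83 and 0.88 and a difference of -1.71 (standard error 0.0779, adjusted p = 1.90e-21). *WNT9A*, a ligand, fell in MDA-MB-231 by 1.65 on the log2 scale, against a change of 0.32 in MDA-MB-436 (adjusted p = 0.0103). Of 24 TCF/LEF factors and β-catenin complex members, *TLE2*, a Groucho corepressor, was the 1 called by edgeR and by DESeq2, with a difference of -1.67.

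Collagens and structural matrix genes leaned to MDA-MB-436. Of 51 tested, 21 were greater in MDA-MB-436 and 6 greater in MDA-MB-231, with a median difference of -0.84. *THBS1*, the matrix glycoprotein thrombospondin-1, was at 1459 and 1399 CPM, then 2738 and 2838 CPM in MDA-MB-231, and at 49.8 and 49.7 CPM, then 322 and 329.8 CPM in MDA-MB-436, with a difference of -1.75 (standard error 0.0737, adjusted p = 1.53e-22). *LAMA4*, a laminin chain, was at 1.60 and 1.97 CPM, then 61.3 and 59.2 CPM in MDA-MB-436, against 11.03 to 21.8 CPM in MDA-MB-231. *FN1*, fibronectin, stayed between 1302 and 1383 CPM in MDA-MB-231 and was at 147 and 146 CPM, then 382 and 375 CPM in MDA-MB-436. Of the collagen VI chains, *COL6A1* and *COL6A2* had differences of -1.54 and -1.55. The chain *COL6A3* was also called and reversed. It was at 135 and 129 CPM, then 37.9 and 36.2 CPM in MDA-MB-231, but held 3 and 0 counts in the NEG libraries of MDA-MB-436 and 11 and 8 counts in its POS libraries, so no fold change is given for that line. The basement membrane genes *COL4A5* and *COL4A6*, neighbours on chromosome X, were on the other side, with differences of 2.48 and 2.34. *COL4A5* was at 12.4 and 10.8 CPM, then 78.8 and 77.8 CPM in MDA-MB-231, and at 79.5 to 96.8 CPM in MDA-MB-436.

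Of 26 mesenchymal genes, 7 were greater in MDA-MB-436 and 1 in MDA-MB-231. *VIM*, vimentin, was at 5624 and 5406 CPM, then 2624 and 2690 CPM in MDA-MB-231, and at 690.3 and 728 CPM, then 803 and 784 CPM in MDA-MB-436, with a difference of -1.22 (standard error 0.0728, adjusted p = 1.38e-17). *TPM1*, a tropomyosin, was at 81.8 and 86.0 CPM, then 208 and 201 CPM in MDA-MB-436, and at 70.4 and 69.4 CPM, then 79.9 and 74.0 CPM in MDA-MB-231, with log2 fold changes of 1.28 and 0.14 (adjusted p = 2.97e-23 and 0.0443). *MYL9*, a myosin light chain, held 1461 and 1461 counts, then 799 and 818 counts in MDA-MB-231, and 1 and 0 counts, then 243 and 173 counts in MDA-MB-436. Of 36 matrix proteases and inhibitors, 8 were greater in MDA-MB-436 and 3 in MDA-MB-231. *LOXL4*, which crosslinks collagen, was at 72.5 and 72.9 CPM, then 110.4 and 116 CPM in MDA-MB-231, and at 20.1 and 22.1 CPM, then 126 and 119 CPM in MDA-MB-436. *ADAMTS9*, a matrix protease, went against this direction with a difference of 2.03. Of 28 epithelial genes, 6 were greater in MDA-MB-231 and 4 in MDA-MB-436. *CLDN1*, a tight junction protein, was at 2.37 and 3.06 CPM, then 27.2 and 28.6 CPM in MDA-MB-231, and at 34.7 to 43.8 CPM in MDA-MB-436.

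Of 43 receptor tyrosine kinases, 8 were greater in MDA-MB-436 and 4 in MDA-MB-231, and 3 were reversed, *FGFR3*, *EPHB1* and *EPHB6*, a kinase-dead ephrin receptor with log2 fold changes of 2.29 and -1.22. *PDGFRB*, a PDGF receptor, was at 10.6 to 14.4 CPM in MDA-MB-231 and at 0.866 and 0.594 CPM, then 4.49 and 4.03 CPM in MDA-MB-436. Of 10 receptor tyrosine kinases that the study had chosen on these samples, 4 were greater in MDA-MB-436 and 0 in MDA-MB-231 by edgeR, and 3 and 0 by DESeq2, with 1 positive at an unadjusted p under 0.05, which is not independent evidence of a direction. Of 24 Notch genes, 5 were greater in MDA-MB-436 and 1 in MDA-MB-231, with a median difference of -0.46. Low counts limit *DTX1*, *HEYL* and *DLL1* among the 5. *DTX1* was at the floor in each group but MDA-MB-436 7TGP-POS. *HEYL* held 6 and 3 counts in MDA-MB-436 7TGP-NEG, and *DLL1* held 3 to 10 counts in the MDA-MB-231 libraries. The receptor *NOTCH3* was at 76.8 and 80.4 CPM, then 488 and 489 CPM in MDA-MB-436, and at 9.81 and 10.5 CPM, then 7.53 and 7.74 CPM in MDA-MB-231, with a difference of -3.05 (standard error 0.104, adjusted p = 1.43e-25). *NRARP*, a Notch target and feedback gene, had a difference of -1.95. Of 34 TGF-β, activin and BMP genes, 7 were greater in MDA-MB-436 and 4 in MDA-MB-231, and *TGFBR2*, a TGF-β receptor, rose in MDA-MB-436 from 65.7 and 63.8 CPM to 169.5 and 167 CPM, and in MDA-MB-231 its log2 fold change was -0.19 (adjusted p = 0.0016). Of 42 axon guidance genes, 7 were greater in MDA-MB-436 and 1 in MDA-MB-231, *SEMA3C* and *SEMA3A*, secreted semaphorins on chromosome 7, among the 7 with differences of -1.56 and -1.94. The 42 genes did not lean as a whole, with a median difference of -0.06 and 20 differences above 0. At an unadjusted p under 0.05, 13 were positive and 14 negative.

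Among 35 interferon-stimulated genes, 7 were greater in MDA-MB-436 and 3 in MDA-MB-231, with a median difference of 0.04. *MX1*, an antiviral GTPase, was at 5.15 and 5.22 CPM, then 6.93 and 6.23 CPM in MDA-MB-231, and at 6.35 and 6.46 CPM, then 141 and 133 CPM in MDA-MB-436. MDA-MB-436 7TGP-POS was the 1 high group, with a difference of -4.07 (standard error 0.149, adjusted p = 1.29e-24). *SAMD9L*, an antiviral factor, had a difference of -1.80, whereas *CXCL10*, which interferon also induces, had a positive one. Among 31 cholesterol and fatty acid synthesis genes, 3 were greater in MDA-MB-231 and 0 in MDA-MB-436 by edgeR and by DESeq2 (2 at an unadjusted p under 0.05), and 25 of 31 differences were above 0, against 46.4% of all genes. *HMGCS1*, an early enzyme of the pathway, fell in MDA-MB-436 from 1127 and 1119 CPM to 197 and 196 CPM and was at 299.8 and 303 CPM, then 176 and 175 CPM in MDA-MB-231. *INSIG1*, which holds the pathway's activator in the endoplasmic reticulum, had log2 fold changes of 0.86 and -0.98. *SLC2A3*, the glucose transporter GLUT3, fell in MDA-MB-436 from 122 and 123 CPM to 13.6 and 15.3 CPM and far less in MDA-MB-231, from 73.2 and 80.4 CPM to 67.0 and 65.4 CPM (log2 -0.21, adjusted p = 0.00363), with a difference of 2.88 (standard error 0.0916, adjusted p = 1.60e-26).

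The remaining lists held few calls, given here as greater in MDA-MB-231 and then greater in MDA-MB-436. There were 5 and 4 of 35 MAPK feedback and AP-1 genes, 2 and 2 of 30 amino acid stress and one-carbon genes, and 1 and 3 of 32 glycolysis and hypoxia genes. By edgeR there were 2 and 0 of 39 DNA replication and mitosis genes (3 and 0 by DESeq2) and 1 and 0 of 18 MHC class I presentation genes (1 and 0 by DESeq2). At an unadjusted p under 0.05, 28 of the 39 were positive and 2 negative, with 33 above 0 and a median difference of 0.35, and 9 of the 18 were positive and 3 negative. Over all 16069 genes, 3384 were positive and 3961 negative at the adjusted p alone, which is the stricter rule. Of all differences, 46.4% were above 0. There were also 4 and 4 of 27 complement and S100 genes. Of 7 genes of a protein network that the study had chosen as raised in these samples, 3 were greater in MDA-MB-231 and 1 in MDA-MB-436, which is not independent evidence either.

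**Figure D3:**
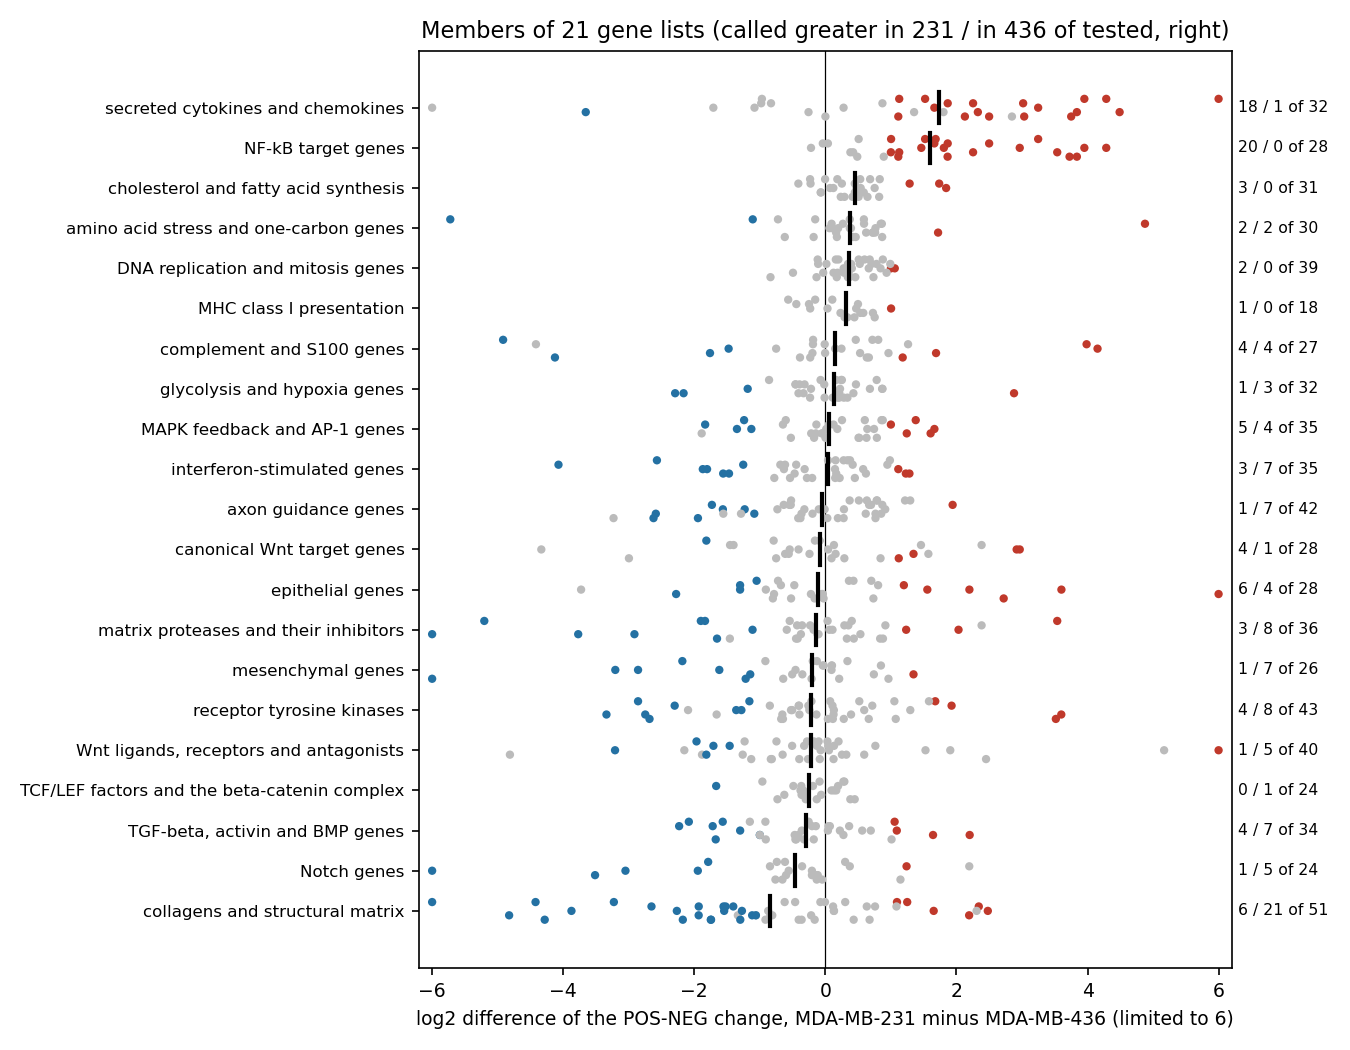
Each point is a member of a list at its difference (log2, MDA-MB-231 minus MDA-MB-436, limited to 6 in size), red where greater in MDA-MB-231, blue where greater in MDA-MB-436 and gray where not called, and the black bar is the list's median. NF-κB targets with 20 and 0 calls and cytokines with 18 and 1 lie to the right, and collagens and structural matrix genes with 6 and 21 to the left.

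Called genes were unevenly placed on the chromosomes. On chromosome X, 82 of 569 genes (14.4%) were greater in MDA-MB-231, and on chromosome 5, 100 of 774 (12.9%), against 4.72% over all genes. On chromosome 7, 104 of 753 genes (13.8%) were greater in MDA-MB-436, and on chromosome 20, 47 of 440 (10.7%), against 7.01%. *SH3BGRL*, *CNKSR2* and *NAP1L3*, described above, lie on chromosome X. In windows of 50 neighbouring genes, counting those whose mean CPM was 1 or more, the median number of calls was 2 greater in MDA-MB-231 and 3 greater in MDA-MB-436 over 248 windows. The window at the start of chromosome 5 (gene starts from 92283 to 32227100, GRCh37) held 36 of 50 genes greater in MDA-MB-231, and the next (32354456 to 52083750) held 26. Their median log2 fold changes were -1.37 and -1.04 in MDA-MB-436 and 0.32 and 0.03 in MDA-MB-231. Next to each other on chromosome 7 lay windows (73868120 to 91714301 and 91826812 to 99613195) with 23 and 19 of 50 genes greater in MDA-MB-436, where the medians were 0.98 and 0.96 in MDA-MB-436 and 0.02 and 0.01 in MDA-MB-231. A window on chromosome X (53401070 to 70364671) held 16 genes greater in MDA-MB-231, with medians of 0.59 in MDA-MB-231 and -0.13 in MDA-MB-436. Some genes described above lie in these windows, *ANKRD33B*, *NKD2* and *HMGCS1* on chromosome 5 and *SEMA3C*, *SEMA3A*, *ELAPOR2*, *FZD1* and *SAMD9L* on chromosome 7, so part of their difference is shared with their neighbours. With the median of 50 neighbours subtracted, the difference was 1.02 for *ANKRD33B*, 1.29 for *NKD2*, 0.97 for *HMGCS1*, -0.77 for *SEMA3C*, -1.15 for *SEMA3A*, -4.54 for *ELAPOR2*, -0.73 for *FZD1* and -0.84 for *SAMD9L*. A window on chromosome 3 (30648093 to 42055294), which holds *TGFBR2*, had 13 of 50 genes greater in MDA-MB-436. Its medians were 0.63 in MDA-MB-436 and -0.12 in MDA-MB-231. The same subtraction left differences of -0.70 for *TGFBR2*, -0.896 for *VIM* and -0.997 for *TPM1*, all under the size threshold. Neighbouring genes are not independent, and the number of gene copies in the sublines was not measured here. After the median of 50 neighbours was subtracted from each gene, 54 and 35 genes were reversed.

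**Figure D4:**
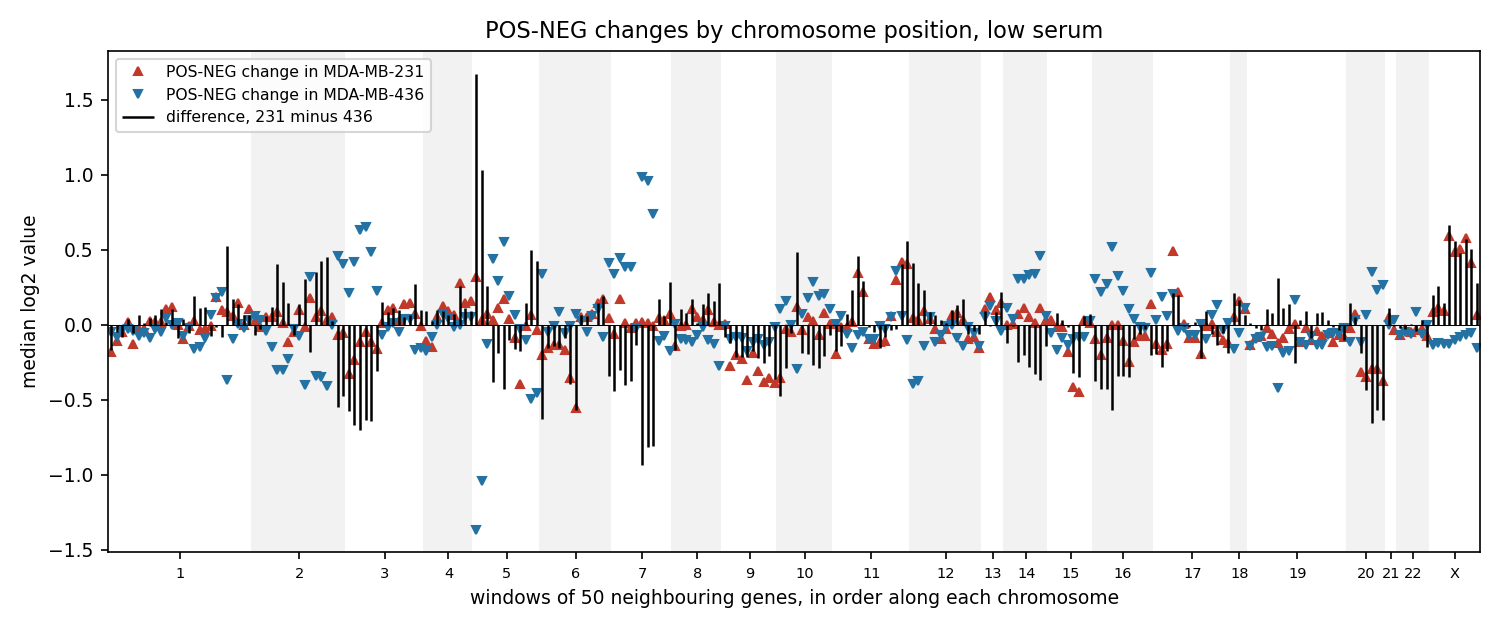
Medians over windows of 50 neighbouring genes in chromosome order, for the log2 fold change of POS against NEG in MDA-MB-231 (red), in MDA-MB-436 (blue) and for their difference (black lines). The first window of chromosome 5 has the highest difference, 1.67, and windows on chromosome 7 the lowest, with medians of -0.94 and -0.82.

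The same contrast was fitted separately to the 8 standard serum libraries (10% FBS, day 6), which took no part in the calls made in low serum. They come from the same sorted sublines, so agreement between the conditions does not sample independent sorts. Serum, days in culture and library preparation differ together between the conditions, so the conditions were not tested against each other. In standard serum 2132 of 15414 genes were called (13.8%), 7.02% greater in MDA-MB-231 and 6.81% greater in MDA-MB-436, while 0.954% were reversed. The adjusted p alone was passed by 41.2%, and POS against NEG passed both thresholds in 7.69% of genes in MDA-MB-231 and 12.5% in MDA-MB-436. Of the 1884 genes called in low serum, 1860 were tested there, 1057 (56.8%) were called with the same sign and 15 (0.806%) with the opposite sign. Of the 93 reversed genes, 80 were called with the same sign and 0 with the opposite sign by edgeR, 92 had the same sign, and 42 were reversed in both conditions in the same orientation. For *CCND2*, *PPL* and *PLXNA2* the differences in standard serum were 4.53, -2.76 and -3.23. In the NF-κB list 12 of 28 genes were called greater in MDA-MB-231 and 0 greater in MDA-MB-436 by edgeR, with 0 negative at an unadjusted p under 0.05. *CXCL8* was not called there, with a difference of 0.16 (standard error 0.102, adjusted p = 0.244), nor was *MX1*, with -0.12 (adjusted p = 0.752). Others described above that were not called there include *IGFBP5*, with -0.70 (adjusted p = 0.262), and *COL6A2*, with -0.09 (adjusted p = 0.886). *INHBA*, with 0.78, was under the size threshold there. Among 35 interferon-stimulated genes, 28 were called greater in MDA-MB-231 and 1 greater in MDA-MB-436 in standard serum, beside 3 and 7 in low serum. In the same order, standard serum gave 9 and 6 calls of 41 axon guidance genes and 3 and 4 of 24 Notch genes. Of 39 DNA replication and mitosis genes, 1 and 4 were called, with a median difference of -0.02. At an unadjusted p under 0.05, 13 of these 39 were positive and 15 negative. *FZD1*, *DKK1* and *NOTCH3* had differences of -1.66, -2.12 and -1.39 there.

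**Figure D5:**
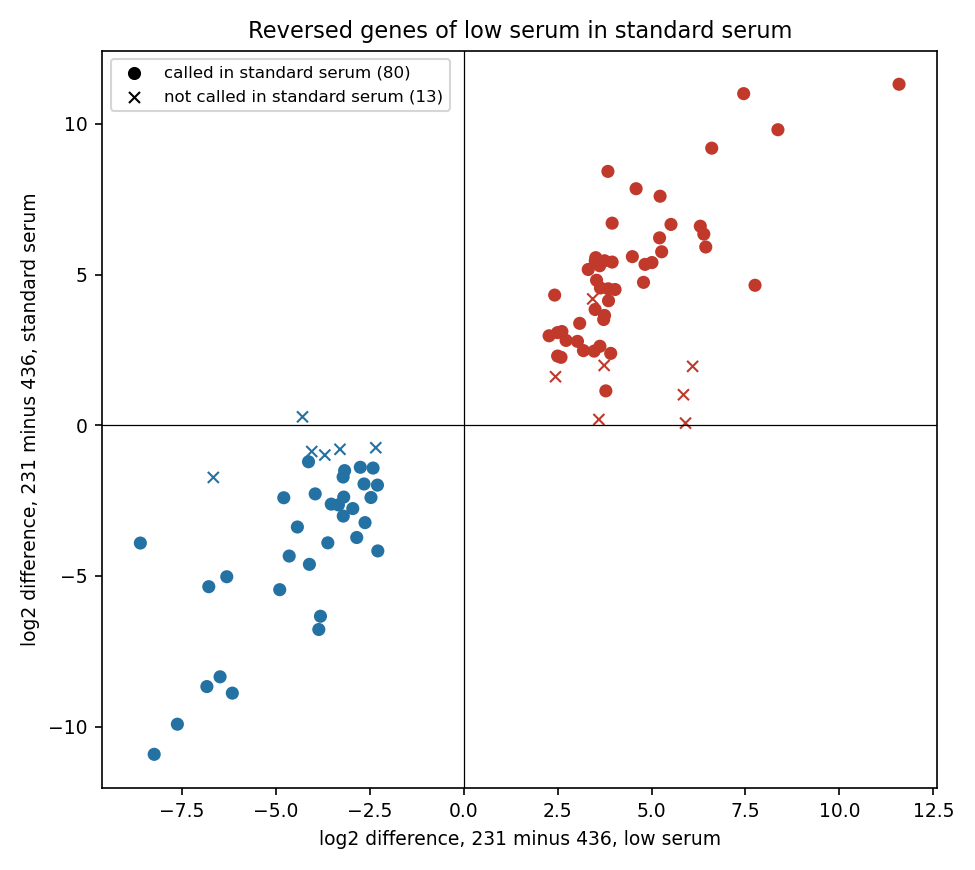
The difference (log2, MDA-MB-231 minus MDA-MB-436) of the 93 reversed genes in low serum on the x axis and in standard serum on the y axis, red for genes that rose in MDA-MB-231 and fell in MDA-MB-436 in low serum and blue for the opposite. Circles mark the 80 genes called in standard serum, all with the same sign as in low serum, and crosses the 13 that were not called.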

How the data were processed

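The authors aligned read pairs to hg19 with STAR (2.6.1a in the submitters' processing notes, another release in the methods) and counted them on Gencode v19 genes. The deposited values are raw counts per gene and, alongside, TPM. The methods describe rRNA-depleted libraries made with a directional kit for low serum, whereas the labels give TruSeq throughout. The genes tested were protein-coding (Gencode v44 on GRCh37) and had a sum of 10 or more counts in the 8 libraries. Libraries were scaled by TMM and fitted with edgeR 4.0.16 (R 4.3.3, robust quasi-likelihood, 4 groups), contrasting POS minus NEG in MDA-MB-231 with POS minus NEG in MDA-MB-436, with Benjamini-Hochberg adjustment. A standard error is the absolute log2 value divided by the square root of F. P-values reflect the spread between 2 cultures of each subline, pooled over the 4 groups. That spread also borrows from other genes, with 4 residual and a median of 35.36 prior degrees of freedom in low serum. Depth was 27918418 to 32667756 counts per library, and intervals for counting error are not given.

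In simulated counts for 15898 genes, 187 of 200 differences of 4-fold (93.5%) and 3 of 15698 other genes were called. The 200 genes had a mean CPM of 1 or more, and the other genes had no POS-NEG change. Counts were drawn with the spread fitted to these libraries. The simulation therefore does not cover changed genes below that level or variation between independent sorts. Alternatives used DESeq2 1.42.0, limma 3.58.1 on log2(TPM + 1), other filters and scalings, a replicate block and left-out libraries. Replicate numbers did not pair the samples (correlations of deviations from -0.126 to 0.0326). Members, lists and tests were chosen with earlier results of these data known. Named genes are the 8 largest differences per direction and the 8 most significant reversed genes per orientation (at least 10 counts per library), the 5 largest with the same direction in both lines, up to 6 called members per list, genes the study lists and 8 canonical Wnt genes. A subset is printed, 1 gene that this rule selects is not reported here, and IL11, IER3, NFKBIZ, the NF-κB subunits, PTGS2, GBP5, TNIP3, EPHB1, CSPG4, LBH, CXCL11, IL24, CCL20, CXCL10, IL33, COL6A3, COL4A6 and FN1 were added after their values were seen.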

Additional observations from a re-analysis of the deposited data

Results flagged for a closer look

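The effect of reporter status differed between the cell lines by the test of the difference itself in 758 genes greater in MDA-MB-231 and 1126 greater in MDA-MB-436, of which 54 and 39 were reversed. Reversed genes with small adjusted p that rose in MDA-MB-231 and fell in MDA-MB-436 had log2 differences of 3.85 (*CCND2*), 3.19 (*NNMT*), 3.62 (*PDZK1IP1*), 3.95 (*S1PR3*), 5.01 (*SCG5*), 3.64 (*CLIC2*) and 2.59 (*ANKRD33B*). Those of the opposite orientation had log2 differences of -2.95 (*PPL*), -2.62 (*PLXNA2*), -4.13 (*C4B*), -3.19 (*TSTD1*), -2.46 (*MDGA1*), -3.52 (*FAM110B*), -2.65 (*NES*) and -4.10 (*MEGF6*). Groups of 2 libraries are too small for a search for single outlying libraries.

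Genes outside the protein-coding set, which the comparisons above do not use, also carried differences. In a fit over all biotypes, 630 of 10893 such genes (5.78%) were called, 258 greater in MDA-MB-231 and 372 greater in MDA-MB-436.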

How the results depend on the processing

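Of 91 counts recomputed under alternatives, 79 stayed within 1.5 times the main count. Without the size threshold, 3384 and 3961 genes were called, 939 and 927 were reversed, and 4065 were called with the same sign in standard serum. A test against a log2 difference of 1 (glmTreat) called 362 and 537 genes, with 19 and 8 reversed. On log2(TPM + 1), 561 genes were greater in MDA-MB-436, and 10 and 9 were reversed. The share of called genes greater in MDA-MB-231 was 40.2% in the main fit and 49.8% on log2(TPM + 1), which compresses low genes. Leaving out 1 library at a time gave 699 to 819 and 968 to 1146 genes, with 45 to 53 and 32 to 47 reversed. With a replicate block in the model, 754 and 1100 genes were called, and 51 and 40 reversed. Crossing the numbers of MDA-MB-436 7TGP-POS, an alternative added after seeing the data because of a correlation of -0.114, gave 771 and 1141 genes.

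Of 132 named genes called, 131 kept their sign in all 12 alternatives and 107 stayed called. *TLR2*, at 0 counts in a group, turned to 0.98 on log2(TPM + 1). *TCF7*, which was not called, turned to 0.12 on log2(TPM + 1) and ranged from -0.184 to 0.044 with 1 library left out, above 0 (0.016 and 0.044) without MDA-MB-231 7TGP-NEG replicate 1 or MDA-MB-436 7TGP-POS replicate 1. *LGR5* lost its call without any 1 of 4 libraries, at 0.701 without MDA-MB-436 7TGP-NEG replicate 1. DESeq2 and limma shared 1608 and 957 called genes with the main fit. Depth limits genes with a group at the floor, 358 of the 1884.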
